A study of Homo sapiens with 6 samples.

Results

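Transcripts of the proteins that cut introns out of pre-mRNA were followed in HEK293 cells with an Illumina bead array. The probes taken have target names that begin with SFRS, SRSF, HNRP, HNRNP, SF3A, SF3B, PRPF, SNRP, U2AF or LSM. This rule takes 116 of the 48701 probes, for 91 target names in 7 classes, and uses no measured value. It also takes some genes of other function, such as LSM14A, and all its probes are called splicing factor probes below. Protein was not measured. HEK293 is an established human embryonic kidney line. The cells carried either SNRK-pEGFPN3, a plasmid for human SNRK (sucrose non-fermenting related kinase, of the AMPK family) joined to green fluorescent protein, or pEGFPN3, which gives green fluorescent protein alone. All cells were transfected with Lipofectamine and Plus Reagent and harvested after 48 hours, so the control cells share the transfection and the fluorescent protein, and untransfected cells are not among the groups. There were 3 arrays a group, called GFP 1 to 3 and SNRK 1 to 3 after the labels. The labels do not say whether replicates were separate cultures. The tests thus weigh a change against the variation among these 6 arrays, and that variation may be technical.

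The spliceosome is built anew on each intron from small nuclear ribonucleoproteins (snRNPs), each a small nuclear RNA with a ring of Sm or LSM proteins and proteins of its own. U1 binds the 5′ splice site, U2AF the 3′ end of the intron, and U2 with the SF3A and SF3B proteins the branch point, before the U4/U6.U5 tri-snRNP with its PRPF proteins joins and catalysis begins. SR proteins mostly promote the use of nearby splice sites, and heterogeneous nuclear ribonucleoproteins (hnRNPs) coat the pre-mRNA and often repress them. Many of these factors also control their own transcripts through exons that lead to decay. Where each probe lies in its transcript is not known here, so isoforms of a gene cannot be told apart.

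The arrays gave median signals of 93.8 to 102 and 15133 to 16190 probes detected at a detection p under 0.01. SNRK itself had signals of 350, 382 and 372 in GFP cells and 485, 460 and 458 in SNRK cells (log2 change 0.44 ± 0.09 SE, limma adjusted p = 0.0219). Whether its probe reads the plasmid is not known here. Of 7 genes set as marks of HEK293 cells, 6 were measured, among them VIM and CDH2, and PAX2 was detected on at most 2 arrays. Of 14 marker genes of blood, endothelial, fibroblast and liver cells, 4 were measured. These were CD68, PECAM1, COL3A1 and ALB, each detected on 6 arrays. Among the others, PTPRC, CD3E and CDH5 were detected on 0 arrays.

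Of the 116 splicing factor probes, 104 for 87 target names were kept, being detected on all 3 arrays of at least 1 group. Another 12 were not, among them all 4 probes of SNRPN, the imprinted Sm protein gene best known from neurons, each detected on 0 of 6 arrays. The other 8 were 2 probes of PRPF40B and 1 each of HNRNPG-T, HNRPCL1, LSM12, PRPF4B, HNRPUL2 and SNRPE. Every kept gene but 1 could be given a current symbol. Array names are used below, with the current symbol where it differs.

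Of the splicing factor probes, 8 passed the threshold between SNRK and GFP cells, each with a change of less than 2-fold. With limma and Benjamini-Hochberg adjustment over all 14964 kept probes, 4 splicing factor probes rose and 4 fell, which is 8 of 104 (7.69%), while 12.9% of all kept probes passed (6.88% higher and 6.06% lower). Over the 17 alternative settings the count ran from 0 to 27, and in 4 of them the splicing factor share was the larger, so the order of these shares is not a result about splicing factors. SFRS15, SFRS16, LSM8 and LSM14A rose, and SF3A2, SF3B2, SNRPB and HNRPL fell. The median log2 change of the 104 probes was 0.02, against 0.0037 over all kept probes, and the median size of the change was 0.16 in both sets. None of the 104 changed by 2-fold or more, whereas 1.04% of all kept probes did, and 2 changed by 1.5-fold or more (1.92%, against 5.97% of all kept probes). The groups did not overlap at 48 of the 104 (46.2%), 23 higher and 25 lower, beside 36.4% of all kept probes. An unadjusted p under 0.05 was reached by 30 of the 104, while 31.1% of all kept probes reached it.

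**Figure D1:**
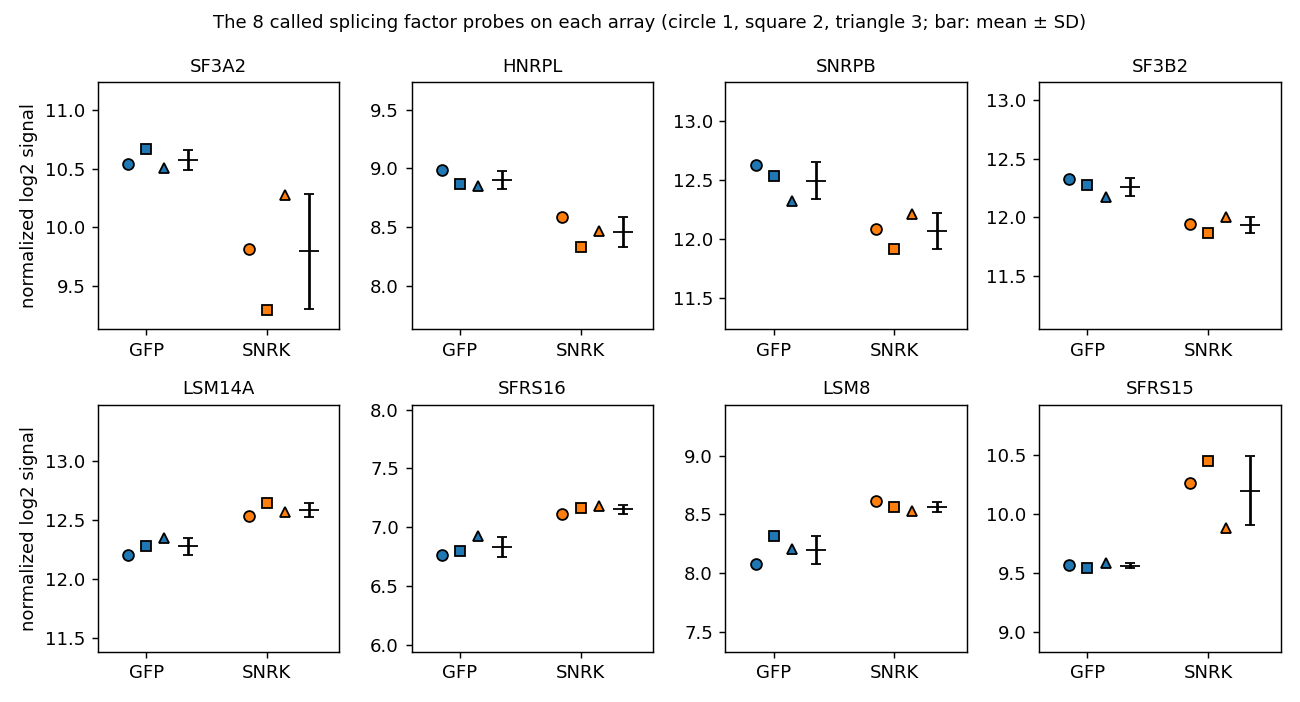
Normalized log2 signal (vertical axis, each panel 2.1 log2 units high) of the 8 called splicing factor probes on each of 3 GFP and 3 SNRK arrays; bars give the mean ± SD. In every panel the 3 SNRK values lie on one side of the 3 GFP values, and SF3A2 and SFRS15 have the widest spread in SNRK cells.

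For the called genes that the promoter table of RefSeq (build GRCh38.p14) holds with an ETS core motif, the 250 bases before the annotated start are shown as the start regions of genes on which the results turn. SCAF4 (SFRS15), CLASRP (SFRS16) and LSM14A have no entry in the table. Capitals mark the ETS core CCGGAAG, the GC box GGGCGG and the CCAAT box CCAAT, each searched on both strands.
SF3A2, chr19:2236574-2236823, plus strand: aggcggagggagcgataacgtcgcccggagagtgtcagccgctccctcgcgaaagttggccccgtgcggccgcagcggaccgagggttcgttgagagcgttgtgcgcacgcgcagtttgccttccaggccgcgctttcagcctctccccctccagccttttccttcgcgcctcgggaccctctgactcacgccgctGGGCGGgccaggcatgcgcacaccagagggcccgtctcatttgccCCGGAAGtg
SF3B2, chr11:66052114-66052363, plus strand: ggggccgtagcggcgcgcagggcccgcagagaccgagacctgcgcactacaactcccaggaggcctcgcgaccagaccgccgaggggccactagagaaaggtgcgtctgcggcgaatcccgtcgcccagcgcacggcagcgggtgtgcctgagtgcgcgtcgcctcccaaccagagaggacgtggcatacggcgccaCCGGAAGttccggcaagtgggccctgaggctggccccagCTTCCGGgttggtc
SNRPB, chr20:2470790-2471039, minus strand: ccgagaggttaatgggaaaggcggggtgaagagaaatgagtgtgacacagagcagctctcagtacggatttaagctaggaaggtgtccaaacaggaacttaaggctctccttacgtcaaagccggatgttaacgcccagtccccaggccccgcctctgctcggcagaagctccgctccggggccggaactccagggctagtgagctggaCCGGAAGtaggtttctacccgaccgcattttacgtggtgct
LSM8, chr7:118183914-118184163, plus strand: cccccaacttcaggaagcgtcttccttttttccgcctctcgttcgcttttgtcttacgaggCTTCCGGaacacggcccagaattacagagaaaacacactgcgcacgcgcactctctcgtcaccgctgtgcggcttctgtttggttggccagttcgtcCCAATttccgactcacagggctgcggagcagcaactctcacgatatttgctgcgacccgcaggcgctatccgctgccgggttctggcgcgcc
The ETS core lay 9 bases before the start in SF3A2, 53 and 14 in SF3B2, 41 in SNRPB and 189 in LSM8. It was found in 8.52% of all 35116 promoter windows, in 13.9% of those of genes with a kept probe and in 30 of 98 windows of kept splicing factor genes (30.6%; some genes have several windows). The GC box was in 53.1% of the splicing factor windows, 63.5% of those of genes with a kept probe and 42.6% of all. The CCAAT box was in 36.7%, 33.7% and 32.0%. HNRNPL, which fell, had no ETS core in either of its windows, which are not shown. Of the genes shown, SF3A2, SF3B2 and SNRPB fell and LSM8 rose. Binding to these motifs was not measured, and whether a motif goes with a change was not tested.

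The SF3A and SF3B proteins, which hold U2 on the branch point during assembly, had 2 of 12 probes that fell and 0 that rose (16.7%, beside 12.9% of all kept probes). SF3A2, a subunit of SF3A, had log2 signals of 10.54, 10.67 and 10.51 in GFP cells and 9.82, 9.30 and 10.27 in SNRK cells. It fell 1.71-fold, the largest change among the 104 kept probes of the name rule (log2 change -0.78 ± 0.21 SE, adjusted p = 0.0476). SNRK 2 was lowest and SNRK 3 nearest the controls, and without SNRK 2 the change was -0.53 and did not pass (adjusted p = 0.0674). SF3B2, a large subunit of SF3B, read 12.33, 12.28 and 12.17 in GFP and 11.95, 11.87 and 12.00 in SNRK cells. That is a fall of 1.25-fold with similar spread in both groups (log2 change -0.32 ± 0.08, adjusted p = 0.0434). With other normalizations SF3B2 had similar changes but did not pass (limma adjusted p = 0.0767 with median scaling and 0.0557 with cyclic loess).

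SF3B4 (log2 change -0.39, adjusted p = 0.0524) and SF3A3 (-0.32, 0.0870) did not pass, although their groups did not overlap. SF3B1, the subunit mutated in some blood cancers, had -0.19, -0.16 and -0.09 at its 3 probes (adjusted p = 0.196, 0.275 and 0.580). The probe with -0.19 was detected on 1 of 3 SNRK arrays. On the other side were SF3B5 at 0.33 (adjusted p = 0.0777) and SF3A1 at 0.34 and 0.08 (0.217 and 0.558), while SF3B14 (SF3B6) had 0.0014 (adjusted p = 0.994). In all, 8 of the 12 probes had a negative change, 3 of them probes of SF3B1, beside 7387 of all 14964 kept probes. The class median was -0.17. The groups did not overlap at 8 (66.7%, beside 36.4% of all kept probes), 6 lower and 2 higher.

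**Figure D2:**
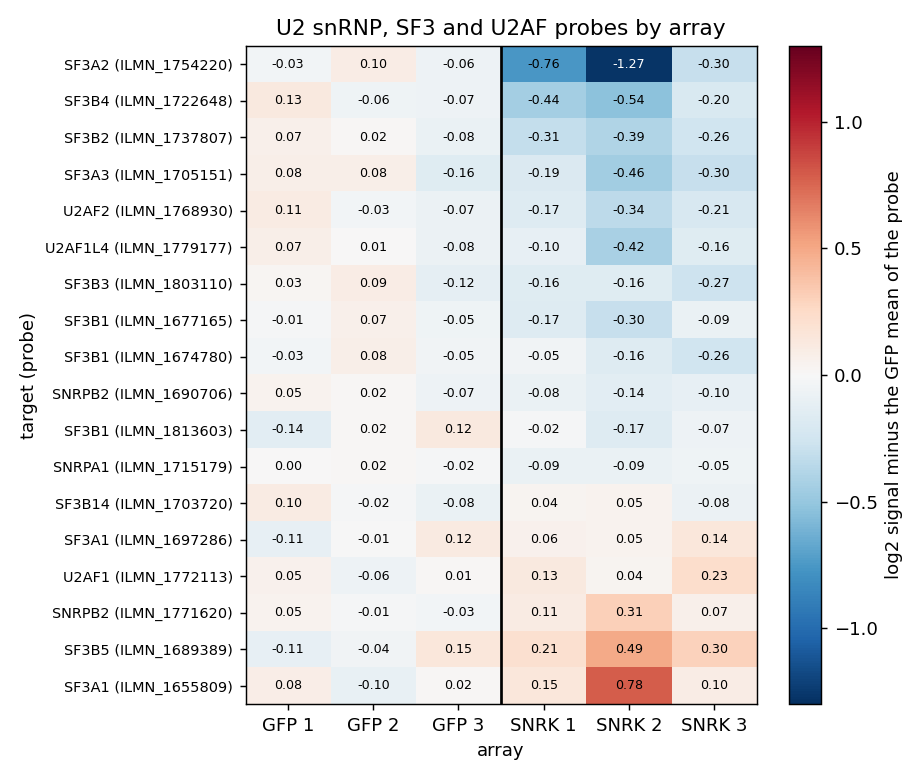
Log2 signal of each SF3A, SF3B, U2AF, SNRPA1 and SNRPB2 probe minus its GFP mean (colour and printed value), by array. Of the 18 probes 12 had a negative change, and 9 of those 12 were lowest on SNRK 2, where SF3A2 reached -1.27.

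U2AF is the heterodimer that reads the polypyrimidine tract and the AG at the end of the intron. Of its 3 probes 0 passed in limma, beside 12.9% of all kept probes. An unadjusted p under 0.05 was reached by 1, beside 31.1% of all kept probes. U2AF2, the large subunit, had a log2 change of -0.24 ± 0.09 (adjusted p = 0.115). U2AF1 had 0.13 (adjusted p = 0.338), and its relative U2AF1L4 -0.23 (0.179).

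Among the snRNP proteins proper, 1 of 16 kept probes passed (6.25%, beside 12.9% of all kept probes). SNRPB, which codes for the Sm ring proteins B and B′, fell 1.34-fold at ILMN_1774661, from 12.63, 12.54 and 12.32 in GFP to 12.08, 11.91 and 12.21 in SNRK cells (log2 change -0.43 ± 0.11, adjusted p = 0.0458). Its other probe, ILMN_1799103, read 12.12, 12.07 and 12.22 in GFP and 12.11, 12.45 and 12.23 in SNRK cells (0.12 ± 0.11, adjusted p = 0.465). The probes had values 0.55 apart in their log2 change, with an exact permutation p of 0.1, two-sided, the smallest that 3 arrays against 3 can give. That test cannot pass 0.05 in this design, so a difference between the probes is not shown. The fall given for SNRPB is the value of 1 probe. At that probe it did not pass with median scaling (limma adjusted p = 0.0818) or cyclic loess (0.0627).

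SNRP70 (SNRNP70), the U1-70K protein that contacts U1 RNA, had -0.38 at its brighter probe and 0.05 at the other (adjusted p = 0.0545 and 0.876). The other U1 proteins SNRPA and SNRPC had 0.14 and -0.16 (adjusted p = 0.279 and 0.260). Of the U2 proteins, SNRPA1 had -0.08 (0.526) and SNRPB2 0.16 and -0.11 (0.270 and 0.378). The remaining Sm ring members lay between -0.20 for 1 SNRPD2 probe and 0.09 for SNRPF. SNRPG, the brightest probe of the class, read 13.98, 13.99 and 13.96 in GFP and 13.90, 13.97 and 13.88 in SNRK cells, a log2 change of -0.06 (adjusted p = 0.632). Brightness depends on the probe and is not compared between genes.

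The PRPF class holds U4/U6.U5 tri-snRNP proteins and other factors first named from yeast mutants. Of its 15 kept probes 0 passed the threshold in limma, beside 12.9% of all kept probes. An unadjusted p under 0.05 was reached by 5, beside 31.1% of all kept probes. PRPF8, the large U5 protein at the catalytic centre, had values of 12.63, 12.70 and 12.60 in GFP and 12.66, 12.68 and 12.66 in SNRK cells (log2 change 0.02 ± 0.08, adjusted p = 0.862). PRPF39, whose yeast counterpart belongs to U1, had -0.51 ± 0.21 (adjusted p = 0.135) and was detected on 2 of 3 SNRK arrays. Its GFP values of 5.57, 6.14 and 5.59 overlapped the SNRK values of 5.31, 4.88 and 5.59. PRPF38A had -0.40 at 1 probe and 0.12 at the other (adjusted p = 0.0592 and 0.408). PRPF3 (0.14), PRPF31 (-0.07), PRPF4 (-0.03) and PRPF6 (0.23), all tri-snRNP proteins, did not pass.

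LSM proteins form the ring on U6 (LSM2 to LSM8), and with LSM1 in place of LSM8 a ring that promotes mRNA decay in the cytoplasm. Of 14 kept LSM probes, 2 rose and 0 fell (14.3%, beside 12.9% of all kept probes). LSM8, the subunit of the nuclear ring alone, read 8.08, 8.32 and 8.20 in GFP and 8.61, 8.56 and 8.52 in SNRK cells, a rise of 1.29-fold (log2 change 0.37 ± 0.09, adjusted p = 0.0353). LSM1, its cytoplasmic counterpart, had 0.06 (adjusted p = 0.696). The difference between these genes was not tested.

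Among the ring subunits common to both, LSM4 had 0.36 with adjusted p = 0.0746, and LSM2, LSM3, LSM5, LSM6 and LSM7 lay between -0.19 and 0.04 and did not pass. LSM14A, a P-body protein that represses translation and is not part of the spliceosome, read 12.20, 12.28 and 12.34 in GFP and 12.53, 12.65 and 12.57 in SNRK cells. It rose 1.24-fold (0.31 ± 0.08, adjusted p = 0.0451), the smallest of the 8 called changes. LSMD1 (NAA38), the auxiliary subunit of an N-terminal acetyltransferase and the class's brightest probe at 12.57 ± 0.02 in GFP and 12.58 ± 0.11 in SNRK cells (SD, n = 3), had 0.01 (adjusted p = 0.936 in limma).

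**Figure D3:**
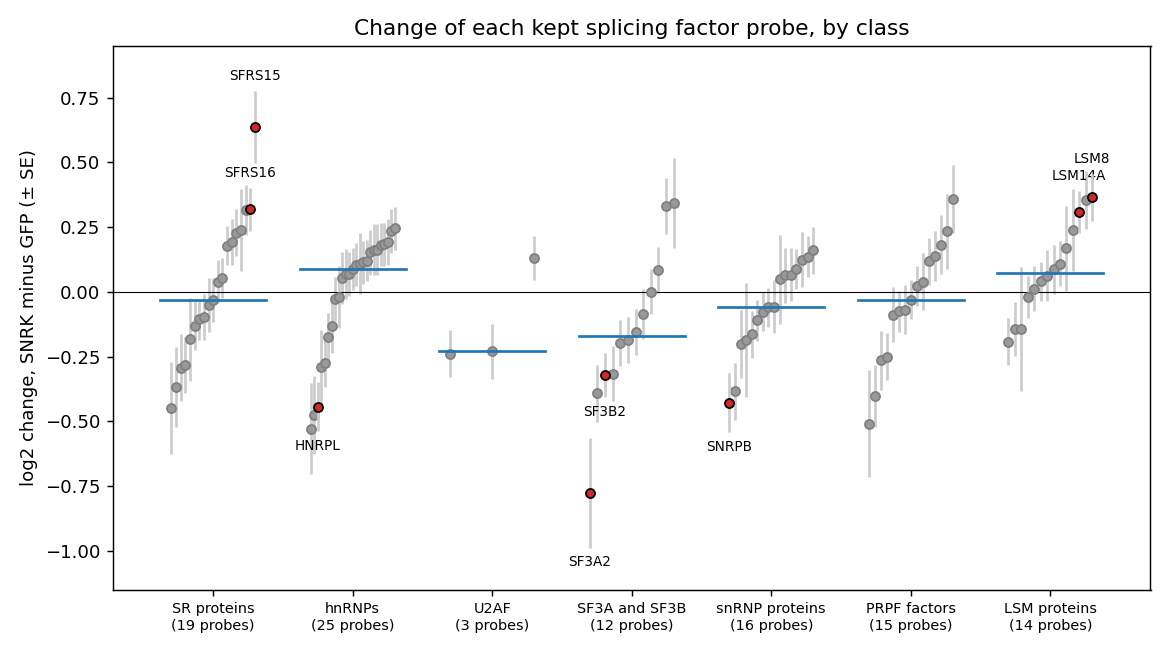
Log2 change, SNRK minus GFP, with its standard error (vertical axis) for each of the 104 kept probes, ordered by size within the 7 classes; red points passed the threshold and blue lines are class medians. The medians run from -0.23 for U2AF and -0.17 for SF3A and SF3B to 0.09 for hnRNPs.

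Of 19 SFRS probes, all kept, 2 rose and 0 fell (10.5%, beside 12.9% of all kept probes). All SFRS genes here have since been renamed, and both of these have current symbols that do not begin with SRSF. SFRS15 (SCAF4), whose product binds RNA polymerase II and prevents early polyadenylation, read 9.57, 9.54 and 9.58 in GFP and 10.26, 10.46 and 9.88 in SNRK cells. It rose 1.56-fold (log2 change 0.64 ± 0.14, adjusted p = 0.0257), with close control values and SNRK 3 as the lowest of the SNRK arrays. SFRS16 (CLASRP), which interacts with the SR protein kinase CLK4, read 6.76, 6.80 and 6.93 in GFP and 7.11, 7.17 and 7.18 in SNRK cells. It rose 1.25-fold (0.32 ± 0.08, adjusted p = 0.0411), but in the authors' processed values its log2 change was 0.13 and did not pass (adjusted p = 0.0552).

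Among the SR proteins in the strict sense no call was made. Of 10 probes for 9 genes whose current symbol begins with SRSF, 0 passed in limma, beside 12.9% of all kept probes. The median change was 0.0049. An unadjusted p under 0.05 was found at 3 of the 10, beside 31.1% of all kept probes. SFRS1 (SRSF1), the best studied SR protein, read 13.53, 13.37 and 13.34 in GFP and 13.33, 13.25 and 13.38 in SNRK cells (-0.10 ± 0.09, adjusted p = 0.488), and these groups overlapped. SFRS2 (SRSF2) had 0.18 (adjusted p = 0.148), SFRS3 (SRSF3) 0.19 (0.184), SFRS5 (SRSF5) 0.04 (0.779) and SFRS11 (SRSF11) -0.37 (0.146). Among SR-related factors, SFRS12 (SREK1) had -0.45 (0.128) and SFRS10 (TRA2B), which promotes exon inclusion, -0.28 (0.116). SFRS14 (SUGP2) had 0.32, 0.24 and -0.11 at its 3 probes (adjusted p = 0.0634, 0.335 and 0.395).

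Of 25 kept hnRNP probes, 1 fell and 0 rose (4%, beside 12.9% of all kept probes), and the class median was 0.09. HNRPL (HNRNPL), which binds CA-rich RNA and represses exons such as those of CD45, read 8.99, 8.87 and 8.85 in GFP and 8.58, 8.33 and 8.47 in SNRK cells. It fell 1.36-fold (log2 change -0.44 ± 0.09, adjusted p = 0.0242, the lowest among the 104 kept probes of the name rule). In the authors' processed values the change was -0.29 and passed (adjusted p = 0.0133). Its paralog HNRPLL (HNRNPLL), named after its values were seen, had -0.47 ± 0.15 with groups that did not overlap and did not pass (adjusted p = 0.0706). HNRPUL1 (HNRNPUL1) had -0.53 ± 0.18 (adjusted p = 0.0827), with SNRK values of 9.98, 10.50 and 9.74 below the GFP values of 10.54, 10.56 and 10.70.

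The abundant hnRNPs that coat most transcripts did not pass. HNRPA1 had 0.16 and 0.12 at its probes, HNRPA2B1 -0.13, HNRPC -0.28, HNRPK 0.09, HNRPM 0.19 and 0.11, HNRPU 0.23 and HNRPD -0.03, with adjusted p from 0.0825 for HNRPC to 0.848 for HNRPD. HNRPAB, whose probe ILMN_1651262 was the brightest of the class, read 13.91, 13.96 and 14.03 in GFP and 14.12, 14.06 and 14.08 in SNRK cells (0.12 ± 0.08, adjusted p = 0.333). At ILMN_1696485, its other kept probe, the change was 0.25 ± 0.08 and did not pass (adjusted p = 0.0898). The groups did not overlap at either probe. The probe named for HNRPA1P4, a pseudogene of HNRNPA1, had 0.16 (0.292), and whether it reads HNRNPA1 transcripts is not known here.

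For 15 genes more than 1 probe was kept, which gives 19 pairs of probes of one gene. In 8 of the 19 the changes had opposite signs, including SNRPB, SNRP70, PRPF38A and SNRPB2, and in 11 the same sign. Changes given for a gene are hence those of the probe named.

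The arrays of the SNRK group did not contribute evenly. At 62 of the 104 kept splicing factor probes (59.6%) SNRK 2 lay farthest from the GFP mean, against 21 each for SNRK 1 and SNRK 3, and over all kept probes SNRK 2 was farthest at 49.4%. At the 48 probes whose groups did not overlap, SNRK 2 was farthest at 33 and SNRK 3 nearest at 24. Refitted without SNRK 2, 1 splicing factor probe rose and 2 fell (2.88%, beside 7.18% of all probes). Without SNRK 3, 3 rose and 10 fell (12.4%, beside 17.5%). Without GFP 1, without GFP 2 or without SNRK 1, limma called 0 of them (19, 17 and 27 had an unadjusted p under 0.05). Of all probes, 2.28%, 1.95% and 2.49% passed in these fits. Without GFP 3 limma called 4 and 4 splicing factor probes (7.69%, beside 12.3% of all probes).

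No called probe turned its direction when an array was left out, but the calls themselves did not hold. The groups did not overlap at any called probe, so leaving out an array could hardly turn a direction. SFRS15 kept its call in 3 of the 6 such fits, with log2 changes from 0.51 to 0.80. HNRPL (-0.50 to -0.38), SF3B2 (-0.37 to -0.28) and SNRPB (-0.51 to -0.35) kept theirs in 2. LSM8 (0.31 to 0.43), SF3A2 (-1.01 to -0.53) and SFRS16 (0.28 to 0.37) kept theirs in 1, and LSM14A (0.27 to 0.34) in 0.

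**Figure D4:**
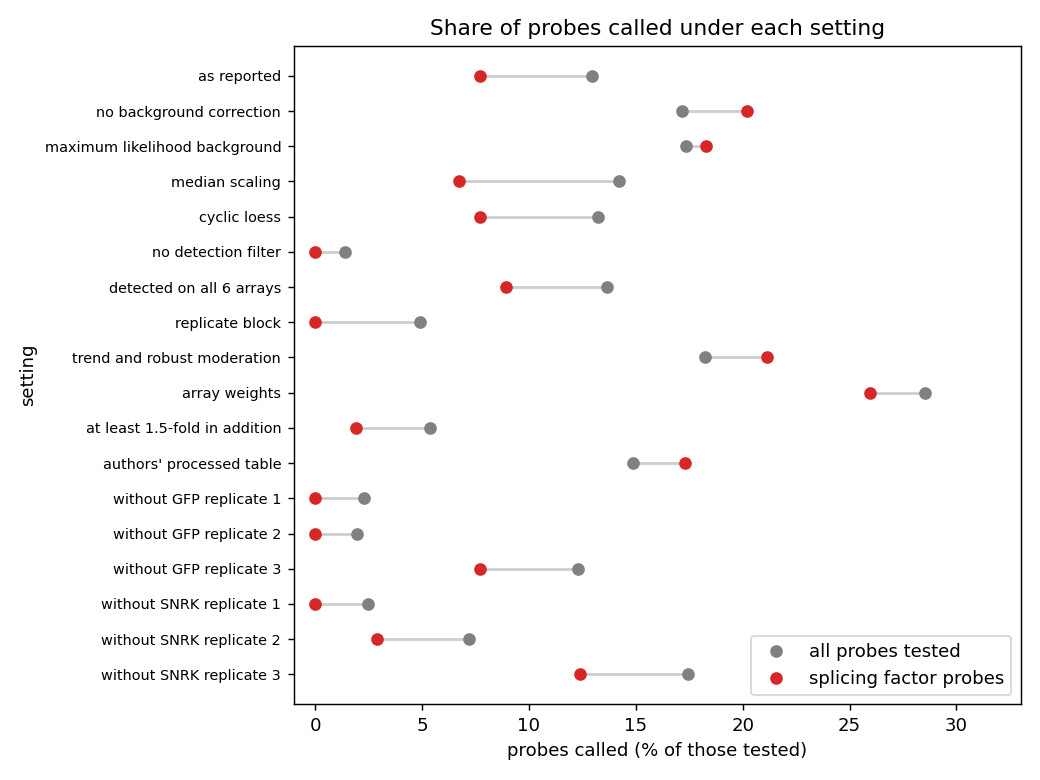
Percentage of probes called (horizontal axis) among the splicing factor probes (red) and all probes tested (grey), for the reported setting and 17 others (vertical axis). The splicing factor share is the smaller in the reported setting (7.69% against 12.9%) and in 13 of the 17 others, and the larger in 4.

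The share of splicing factors that passed, set against that of all probes, depended on the processing. Without background correction 20.2% of the splicing factor probes passed, beside 17.2% of all probes. In the authors' processed values the shares were 17.3% and 14.9%. The plot of shares by setting shows the same order with a maximum likelihood background (18.3% and 17.3%) and with trend and robust moderation (21.2% and 18.2%), and the opposite order in the other 13 settings.

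Genes of the same machinery that the name rule leaves out were counted through 5 lists, each gene by its brightest kept probe, where 13.2% of all 10072 genes passed (7.44% higher and 5.76% lower). Of 41 measured genes of the spliceosome core outside the rule, 3 rose and 2 fell (12.2%; median log2 change -0.04). SF1, the branch point binding protein that U2 replaces, read 7.11, 7.10 and 7.07 in GFP and 7.72, 8.41 and 7.78 in SNRK cells. It rose 1.84-fold (0.88 ± 0.17, adjusted p = 0.0182), and its dimmer probes had 0.37 and 0.37 (adjusted p = 0.0607 and 0.157). TXNL4A, a small U5 protein, rose by 0.57 (adjusted p = 0.0157) and CHERP, a U2-associated protein, by 0.43 (0.0308). In the authors' processed values all 3 passed with smaller log2 changes, 0.44 for SF1, 0.15 for TXNL4A and 0.22 for CHERP, and TXNL4A had 0.25 without background correction and 0.33 with a maximum likelihood background. SNW1 and XAB2, proteins of the activated spliceosome, had log2 changes of -0.36 (0.0276) and -0.62 (0.0413) and fell. XAB2 was named after its values were seen. Without SNRK 2 it had -0.44 and did not pass (adjusted p = 0.0600).

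Of 16 SR kinases and SR-related proteins, ACIN1, which associates with the exon junction complex, rose by 0.48 (adjusted p = 0.0280) and 0 fell. The SR protein kinase genes CLK2 (0.44, adjusted p = 0.0505) and CLK4 (-0.32, 0.0592) and the kinase gene DYRK1A (-0.27, 0.0607) did not pass. Their dimmer probes had 0.09 for CLK2 (0.583) and, with the opposite sign, 0.15 for DYRK1A (0.670). Of 28 hnRNP-like and other regulators of splice choice, 1 rose and 0 fell. TIAL1, which binds U-rich RNA near 5′ splice sites, rose by 0.62 at its brightest probe (adjusted p = 0.0127) and by 0.66 at the next (0.00769), but fell by 0.62 at the dimmest (0.0203). QKI had 0.50 at its brighter probe (0.0576) and rose by 0.60 at the dimmer (0.0295), while KHDRBS1 (0.28) and CELF1 (0.43) did not pass.

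In the SMN complex and snRNP assembly list, 1 of 15 genes rose and 0 fell. CLNS1A, which brings Sm proteins to the methylosome, rose by 0.28 (adjusted p = 0.0481), and PRMT5, the arginine methyltransferase of that complex, had -0.32 (0.0671). GEMIN5 (0.28) and DDX20 (-0.38) did not pass. Of 13 genes of the exon junction complex and nonsense-mediated decay, SMG5, which helps dephosphorylate the decay factor UPF1, rose by 0.62 (adjusted p = 0.0292) and 0 fell. UPF1 had 0.32 (0.0612) and NXT1 -0.16 (0.279). Leaving out GFP 1 or GFP 2 ended the call of each of the 9 list genes that passed, and SF1 (log2 change 0.67 to 1.01 over the 6 such fits) kept its call in 4 of them, TXNL4A and TIAL1 in 3, CHERP, ACIN1 and SMG5 in 2, SNW1 and XAB2 in 1 and CLNS1A in 0.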

How the data were processed

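The authors deposited a table of 48701 probes on 6 Illumina arrays, with an intensity and a detection p-value per probe and array; per the file headers the intensity is not normalized. A second deposited table holds linear intensity values of the same probes, rounded and with a median of 170 on every array; its scale is known from the values, but its normalization is not given in the sources used here. The submitters' processing notes name lumi. The number of arrays limits the precision.

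Background was removed with neqc (limma 3.58.1 in R 4.3.3, offset 16), which estimates negative controls through the detection p, and signals were quantile-normalized and taken to log2. Probes with detection p under 0.01 on all 3 arrays of a group were kept (14964). Group was the single term of a linear model (lmFit, eBayes) over all 6 arrays, tested two-sided; p-values were adjusted by Benjamini-Hochberg across every kept probe; adjusted p under 0.05 is called rise or fall. All p-values of single probes are from this limma fit unless an exact permutation test is named. The fit was tried on simulated data with known changes and noise drawn independently for each probe and array. Effects shared by the probes of an array were not simulated. Target names were matched to current symbols with RefSeq GRCh38.p14 (90 of 91).

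Named are all called members, other probes of their genes, the brightest probe of each class, uncalled members with a log2 change of 0.5 or more, and up to 4 genes per list with the smallest p (1 of these is not reported here); further members illustrate their class and were chosen after their values were seen. Members, lists and tests were chosen with earlier results of these data known. Alternatives were other background corrections, normalizations, filters, moderation, array weights, a 1.5-fold limit, the authors' values, the replicate number as a block, and each array left out.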

Additional observations from a re-analysis of the deposited data

How the results depend on the processing

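Across all 17 alternatives the 8 called splicing factor probes kept their direction, and their call in 72 of 136 refits. In many of them the direction could hardly change. Some reuse the same normalized values, and the fits with an array left out start from groups that do not overlap. The reported counts were 4 higher and 4 lower. They became 9 and 12 without background correction, 8 and 11 with a maximum likelihood background fitted to the signals alone (offset 50), 9 and 13 with trend and robust moderation, 10 and 17 with array weights, 9 and 9 in the authors' processed values, and 1 and 1 with a 1.5-fold limit in addition. Without the detection filter limma called 0 and 0 (39 with an unadjusted p under 0.05). With each array left out in turn the counts ran from 0 to 4 higher and 0 to 10 lower. Over all kept probes, 1030 were higher and 907 lower. These became 2193 and 2073 with array weights, 390 and 416 with the 1.5-fold limit, and 349 and 320 without the detection filter, and ran from 124 to 1399 and from 172 to 1263 with an array left out. The cause was not tested.

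With the replicate block limma called 0 and 0 splicing factor probes (23 with an unadjusted p under 0.05) and 374 and 357 of all kept probes. The deviations of same-numbered arrays from their group means correlated at -0.06, -0.13 and -0.30, and those of differently numbered arrays at -0.21 to 0.29. Such deviations cancel out within each group, so the correlations constrain each other. They cannot decide whether the numbers pair the arrays. The reported fit uses no pairing. SFRS16 ranged from 0.13 in the authors' values and 0.19 without background correction to 0.38 with median scaling. PRPF39 went from -0.51 to -0.18 without background correction and -0.10 in the authors' values.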
